A study of Mus musculus with 43 samples.

Results

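Chromatin remodellers use ATP to slide, evict or exchange nucleosomes, and histone methylation enzymes add or remove methyl groups on histone tails. SWI/SNF complexes open chromatin at promoters and enhancers, whereas NuRD couples nucleosome remodelling to histone deacetylation. In red cell precursors both kinds of complex work with lineage factors such as GATA1 and EKLF, and condensation of the nucleus in late maturation goes along with broad changes in histone marks. The 10 genes described here encode 4 SWI/SNF subunits (Smarca4, Smarcb1, Smarcc1 and Arid1a), a pair of NuRD subunits (Chd4 and Mta2), 3 histone methyltransferases (Kmt2a, Ezh2 and Dot1l) and 1 demethylase (Kdm1a). They were chosen by name, with earlier counts from these lists known. An EKLF region was given to a gene when the centre of the region lay in the gene body or within 10 kb of either end. All 10 were found among the 21523 protein-coding genes used, whose positions come from RefSeq for GRCm38.p6, the mm10 build of the lists. Their windows held 31 of 15564 regions in Nan/+ embryos and 20 of 9181 regions in WT embryos.

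The data are lists of EKLF ChIP-seq regions from mouse fetal liver at E13.5 (days of embryonic development), from Nan/+ embryos and from WT embryos of the Nan strain. ChIP-seq sequences the DNA pulled down with a factor, here by antibody 7B2a to EKLF from crosslinked chromatin cut with micrococcal nuclease. EKLF, the product of Klf1, is an erythroid zinc-finger activator, and Nan is an allele of Klf1 with a changed zinc finger. Nan/+ embryos carry 1 normal allele as well, and the lists do not tell the products of both alleles apart. Each list was made by the authors from 3 ChIP libraries, of 72023512 to 100763687 tags in Nan/+ and 74140385 to 103170594 tags in WT, per the file headers. Replicates were pooled in each list and the deposited score is 1 in every row, so no value has a spread between replicates and no difference below was tested. A region missing from a list can lie just under its calling threshold. The authors set a peak size of 175 bp for Nan/+ and 125 bp for WT, which fixes the smallest widths at 176 bp and 126 bp. The labels call the cells primary erythroid. The lists hold occupancy and not expression. Of 5 erythroid marker genes (Slc4a1, Alas2, Epb42, Ermap and Rhag) 5 had a region in Nan/+ and 5 in WT. Of 7 hepatoblast marker genes (Alb, Afp, Apoa1, Ttr, Serpina1a, Trf and Hnf4a) 2 had one in Nan/+ and 3 in WT. The shares over all protein-coding genes were 37.5% in Nan/+ and 33.5% in WT. Afp held 7 Nan/+ regions and 2 WT regions, and Alas2 held 5 in each list.

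All 10 genes had at least 1 region in each list. Across all protein-coding genes 37.5% had a region in Nan/+, 33.5% had one in WT and 23.5% had one in both. The 10 genes are long, at a median of 58.6 kb where all genes have 17.4 kb, and a long gene offers more room for a region. Among the 11447 genes no shorter than Mta2 and no longer than Smarcc1, 43.5% had a region in Nan/+ and 39.6% in WT. The genes were picked with earlier counts from these lists known, so full coverage is not independent evidence about them. The number of regions per gene had a median of 2.5 in Nan/+ and 1.5 in WT, against 0 in each list over all genes. The Nan/+ count was higher at 6 of the 10 genes, equal at 4 and lower at 0. That direction depended on how narrow regions were handled. Without Nan/+ regions of the minimum width, and with the WT list left whole, 18 Nan/+ regions stood against 20 WT regions. The Nan/+ count was then higher at 3 genes, equal at 3 and lower at 4. In the widest 50% of each list, 20 Nan/+ regions stood against 13 WT regions. There the Nan/+ count was higher at 5 genes, equal at 4 and lower at 1. Over all genes 23.0% had more regions in Nan/+ than in WT. That share also counts genes with no region in either list, and none of the 10 genes is of that kind. It is therefore not a like base for the tally at the 10 genes.

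At the gene starts fewer of the genes were listed in Nan/+ than in WT. In Nan/+ the start carried a region at 5 genes, Arid1a, Chd4, Mta2, Kmt2a and Kdm1a, with 8 regions centred within 1 kb of a RefSeq start. In WT all 10 genes had such a region, 11 in all. At the other 5 genes, Smarca4, Smarcb1, Smarcc1, Ezh2 and Dot1l, the start had a WT region and no Nan/+ region. By class, the Nan/+ list had a start region at 1 of the 4 SWI/SNF genes, at both NuRD genes, at 1 of the 3 methyltransferases and at the demethylase. Among the 17274 genes with a RefSeq start, 16.4% had a Nan/+ region and 22.4% a WT region within 1 kb of it. Within the length range of the 10 genes these shares were 20.2% in Nan/+ and 28.1% in WT. Of all genes with a WT region at a start, 55.5% had no Nan/+ region there. The 5 of 10 seen here is close to that share, so it is no result about the 10 genes as a group.

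**Figure D1:**
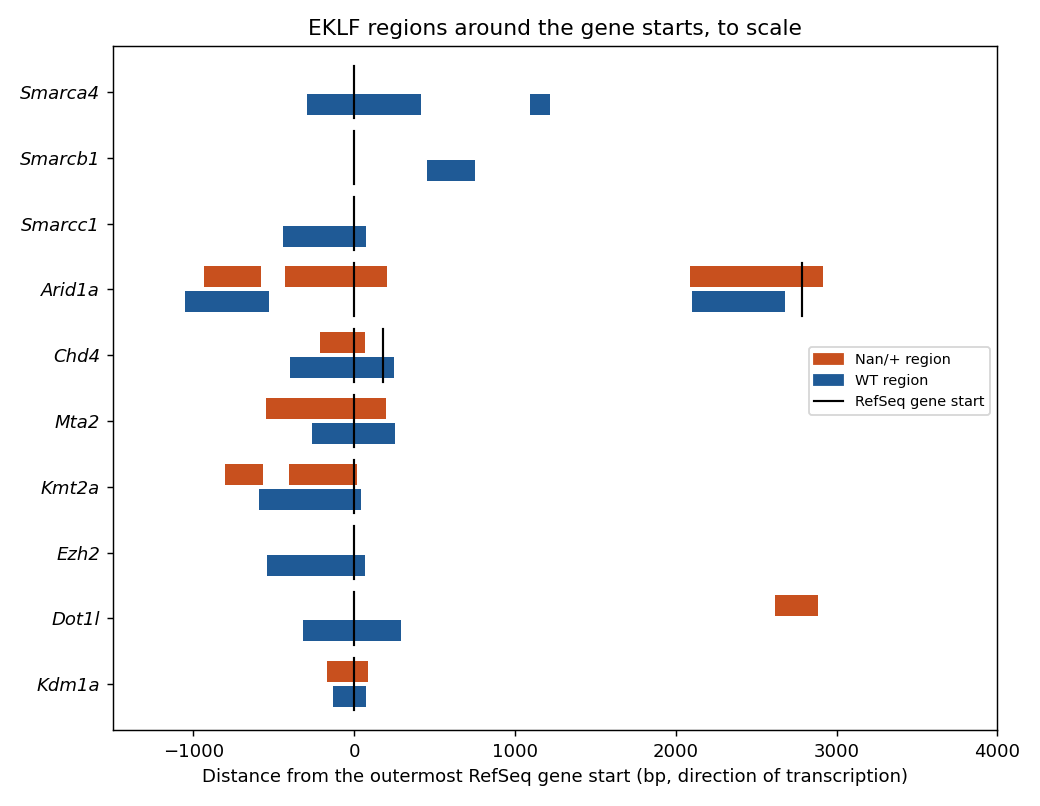
EKLF regions around the starts of the 10 genes, drawn to scale as distance in bp from the outermost RefSeq start in the direction of transcription, with Nan/+ regions above WT regions and RefSeq starts as black lines. Nan/+ bars lie within 1 kb of a start at Arid1a, Chd4, Mta2, Kmt2a and Kdm1a and WT bars at all 10 genes; the Nan/+ bar at Dot1l is centred 2750 bp into the gene.

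The promoters are shown here because gene starts are where the regions of both lists met. They are the RefSeq windows of 250 bases before to 50 bases after a gene start, on the strand of the gene, for 5 genes whose window was overlapped in both lists and for Smarca4, which was overlapped in WT alone. Capitals mark matches to the textbook EKLF site, spelled CCACACCC, CCACGCCC, CCCCACCC or CCCCGCCC, and to the GATA factor site, spelled AGATAA or TGATAA, on either strand. On the opposite strand these spellings read, for example, GGGCGTGG and GGGCGGGG.
Arid1a, chr4:133753936-133754235, minus strand: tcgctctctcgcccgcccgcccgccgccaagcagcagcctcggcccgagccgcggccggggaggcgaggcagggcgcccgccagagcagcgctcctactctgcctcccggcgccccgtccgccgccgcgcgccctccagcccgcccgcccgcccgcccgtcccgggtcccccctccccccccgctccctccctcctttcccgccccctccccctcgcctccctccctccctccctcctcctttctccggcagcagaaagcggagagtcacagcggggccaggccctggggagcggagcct
Chd4, chr6:125095731-125096030, plus strand: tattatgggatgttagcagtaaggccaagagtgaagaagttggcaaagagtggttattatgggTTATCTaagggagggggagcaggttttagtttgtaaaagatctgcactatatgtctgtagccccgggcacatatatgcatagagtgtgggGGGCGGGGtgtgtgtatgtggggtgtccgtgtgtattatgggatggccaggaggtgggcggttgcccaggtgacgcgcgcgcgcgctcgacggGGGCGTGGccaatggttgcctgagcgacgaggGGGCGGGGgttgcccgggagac
Mta2, chr19:8941670-8941969, plus strand: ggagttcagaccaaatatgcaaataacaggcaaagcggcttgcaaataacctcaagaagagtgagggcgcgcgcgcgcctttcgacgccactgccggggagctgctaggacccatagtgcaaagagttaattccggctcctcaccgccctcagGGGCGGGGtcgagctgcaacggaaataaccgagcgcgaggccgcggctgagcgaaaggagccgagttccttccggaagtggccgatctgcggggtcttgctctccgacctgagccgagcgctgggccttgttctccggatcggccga
Kmt2a, chr9:44881240-44881539, minus strand: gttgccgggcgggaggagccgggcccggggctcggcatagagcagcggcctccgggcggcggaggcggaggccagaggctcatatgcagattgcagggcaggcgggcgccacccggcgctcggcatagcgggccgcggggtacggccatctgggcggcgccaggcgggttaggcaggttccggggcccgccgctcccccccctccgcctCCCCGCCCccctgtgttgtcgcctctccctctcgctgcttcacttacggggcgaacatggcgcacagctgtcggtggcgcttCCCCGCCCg
Kdm1a, chr4:136602674-136602973, minus strand: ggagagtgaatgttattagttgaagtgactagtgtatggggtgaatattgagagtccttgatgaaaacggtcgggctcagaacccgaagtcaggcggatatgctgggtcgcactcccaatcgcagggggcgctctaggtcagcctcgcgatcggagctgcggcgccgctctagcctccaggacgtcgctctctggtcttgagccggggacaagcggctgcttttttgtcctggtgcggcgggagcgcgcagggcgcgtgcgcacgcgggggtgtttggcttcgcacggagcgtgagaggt
Smarca4, chr9:21615919-21616218, plus strand: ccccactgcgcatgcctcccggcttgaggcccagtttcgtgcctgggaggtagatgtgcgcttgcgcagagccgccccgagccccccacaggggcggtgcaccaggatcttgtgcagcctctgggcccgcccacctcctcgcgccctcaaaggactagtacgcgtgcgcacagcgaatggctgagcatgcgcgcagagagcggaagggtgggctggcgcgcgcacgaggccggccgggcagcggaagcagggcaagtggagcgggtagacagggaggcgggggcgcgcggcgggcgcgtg

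An EKLF-type spelling was present in the promoter window of 3 of the 5 genes with a start region in both lists, Chd4, Mta2 and Kmt2a, and of 2 of the 5 with one in WT alone, Smarcc1 and Dot1l. The 10 genes have 12 windows, since Arid1a and Chd4 have a second start each, and 6 of the 12 held a match. Over all 21045 promoter windows 36.5% did, and 57.9% of those overlapped by a Nan/+ region and 57.1% of those overlapped by a WT region. Counted once per position, the 12 windows held 10 matches, 7 of CCCCGCCC and 3 of CCACGCCC. Neither CCACACCC nor CCCCACCC, the spellings with A before the final CCC, was found in them. Over all windows CCACACCC was found in 3.64%, CCACGCCC in 7.04%, CCCCACCC in 11.1% and CCCCGCCC in 23.8%. Of the 10 matches, 5 lay inside a Nan/+ region and 9 inside a WT region. GATA spellings were found at Chd4 and at the outer start of Arid1a, and in 15.8% of all windows. The windows of Arid1a at its inner start, Kdm1a, Smarca4, Smarcb1 and Ezh2 held none of the spellings searched. These matches describe letters within the window and say nothing of the factor itself.

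The SWI/SNF genes are described first. Smarca4 encodes BRG1, an ATPase motor of the complex, and spans 88.1 kb of chromosome 9. Its Nan/+ regions numbered 6 and its WT regions 3, and none overlapped. In Nan/+ no region lay nearer than 33.8 kb to the start: 5 lay in the gene body, from 33.8 to 87.2 kb into the gene, and 1 beyond its end. All but 1 of the 6 had the minimum width of 176 bp, and the first was 234 bp wide. In WT a region of 711 bp, at 21615876 to 21616586, covered the start and the whole promoter window printed above. The remaining WT regions, at the minimum width of that list, lay 1.16 and 49.9 kb into the gene. The nearest approach of the lists anywhere at Smarca4 was a gap of 3543 bp inside the gene.

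Smarcb1 encodes the core subunit BAF47, also called SNF5, lost in rhabdoid tumours. It had 1 region in each list, 16563 bp apart. The Nan/+ region, of the minimum width, lay 17.4 kb into the gene on chromosome 10 (75904124 to 75904299). The WT region of 301 bp was centred 600 bp inside the gene (75920863 to 75921163) and did not reach the promoter window. Smarcc1 encodes the scaffold subunit BAF155 and spans 108 kb of chromosome 9. In Nan/+ it had regions of 294 and 176 bp, centred 7.13 and 43.5 kb into the gene. In WT a region of 517 bp covered the start (110131580 to 110132096), including both EKLF-type matches of its window, and another of 170 bp lay 37.4 kb into the gene.

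Arid1a encodes the DNA-binding subunit BAF250A, which defines the BAF form of the complex. It had the most regions of the 10 genes, 8 in Nan/+ and 5 in WT, of which 3 in each list overlapped. Its RefSeq starts lie at 133756769 and, further into the gene, at 133753985 on chromosome 4. At the inner start a Nan/+ region of 831 bp (133753853 to 133754683) covered the start and contained a WT region of 581 bp (133754090 to 133754670), which lay just upstream of it. At the outer start a Nan/+ region of 634 bp covered the start itself (133756567 to 133757200) and had no WT counterpart. Just upstream of it a Nan/+ region of 352 bp lay within a WT region of 523 bp, at 133757297 to 133757819. The gap between that WT region and the Nan/+ region over the start was 96 bp. Another overlapping pair, 176 bp in Nan/+ and 244 bp in WT, lay beyond the far end of Arid1a and within 1 kb of the start of the neighbouring gene Pigv. A WT region of 813 bp at the same start (133672165 to 133672977), the widest WT region of the 10 genes, had no Nan/+ counterpart and lay 383 bp from the nearest Nan/+ region. Inside the gene 4 Nan/+ regions of 176 to 277 bp and 1 WT region of 157 bp lay at least 9013 bp from any region of the other list. Smarca4, Smarcb1 and Smarcc1 together held 9 Nan/+ regions and 6 WT regions, of which 0 overlapped; over the whole lists 14.7% of Nan/+ regions and 24.5% of WT regions did, so at these numbers nothing is read from the 0.

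**Figure D2:**
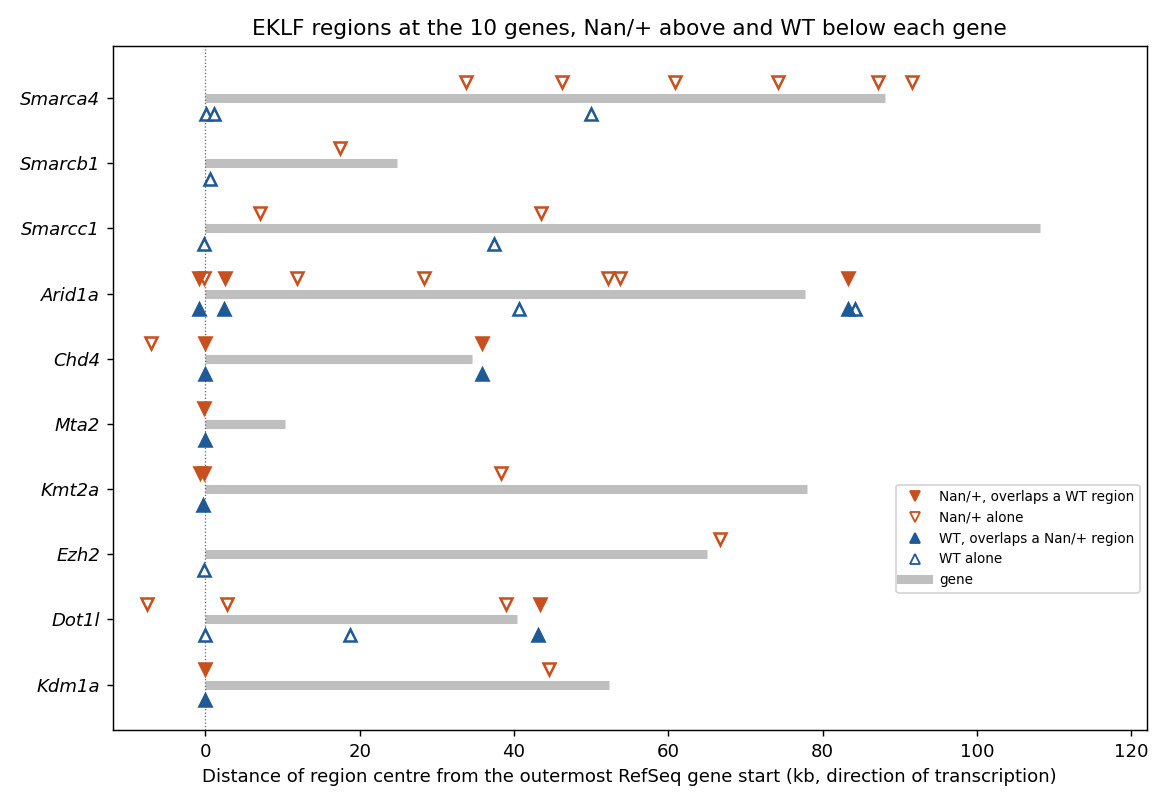
Positions of all EKLF regions along the 10 genes, as distance of the region centre in kb from the outermost RefSeq start in the direction of transcription, with Nan/+ regions above and WT regions below each grey gene bar. Filled symbols overlap the other list, open symbols do not, and symbols do not show width; filled symbols lie at gene starts or just beyond gene ends, and symbols inside the genes away from the starts are open, 16 in Nan/+ and 5 in WT.

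Both NuRD genes had a start region in both lists. Chd4 encodes the ATPase Mi-2beta, and had 3 regions in Nan/+ and 2 in WT. At its start the Nan/+ region of 276 bp (125095772 to 125096047) lay wholly inside the WT region of 645 bp (125095582 to 125096226). The WT region covered 4 distinct EKLF-type matches, and the Nan/+ region 3 of them. Another pair, 220 bp in Nan/+ and 421 bp in WT, lay beyond the far end of Chd4 at the start of Nop2, the next gene. A Nan/+ region of the minimum width, 7008 bp upstream of Chd4, had no counterpart. Mta2 encodes a metastasis-associated subunit of NuRD, and at 10.4 kb is the shortest of the genes. It had 1 region in each list, 742 bp in Nan/+ and 516 bp in WT, which overlapped by 459 bp across the start on chromosome 19 (8941374 to 8942115 in Nan/+ and 8941657 to 8942172 in WT). Each covered the whole promoter window with its single EKLF-type match.

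Of the methyltransferases, Kmt2a alone had a start region in both lists. Kmt2a encodes MLL1, which methylates histone H3 at lysine 4. At its start 2 Nan/+ regions of 424 and 237 bp both overlapped 1 WT region of 632 bp (44881249 to 44881880), the first wholly and the second by 27 bp. Because of this, 10 Nan/+ regions but 9 WT regions counted as overlapping over the 10 genes. Another Nan/+ region, of the minimum width, lay 38.3 kb into the gene. Ezh2 encodes the catalytic subunit of Polycomb repressive complex 2, which methylates lysine 27. Its single Nan/+ region, of the minimum width, lay beyond the far end of the gene, 66.7 kb from the start, where it also falls within 10 kb of Cul1. In WT the single region was 612 bp wide and covered the start and the whole promoter window (47594961 to 47595572). No other gene of the 10 had its lists so far apart, at 66496 bp.

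Dot1l encodes the methyltransferase for lysine 79 of histone H3, a mark of transcribed genes. It had 4 regions in Nan/+ and 3 in WT. In WT a region of 610 bp was centred 13 bp from the start (80754885 to 80755494), and another of 396 bp lay 18.7 kb into the gene. The Nan/+ region nearest the start was 267 bp wide, was centred 2750 bp into the gene and lay 2325 bp from the WT start region. Further Nan/+ regions lay 7608 bp upstream, at the minimum width, and 39.0 kb into the gene. The only overlapping pair, 861 bp in Nan/+ and 405 bp in WT, lay beyond the far end of Dot1l, at the starts of Plekhj1 and Sf3a2.

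Kdm1a encodes LSD1, which removes methyl groups from lysine 4 of histone H3 as part of CoREST complexes. It had 2 regions in Nan/+ and 1 in WT. At its start on chromosome 4 the Nan/+ region of 258 bp (136602636 to 136602893) contained the WT region of 205 bp (136602649 to 136602853), the narrowest WT start region of the 10 genes. A further Nan/+ region, 272 bp wide, lay 44.6 kb into the gene.

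Every region of the 10 genes that overlapped the other list lay at a gene start, their own or a neighbour's. Of the regions at the 10 genes, 10 of 31 in Nan/+, or 32.3%, and 9 of 20 in WT, or 45.0%, overlapped the other list, against 14.7% of all Nan/+ regions and 24.5% of all WT regions. At the genes' own starts 7 of 8 Nan/+ regions and 6 of 11 WT regions overlapped. Among all regions within 1 kb of a start, 50.9% in Nan/+ and 37.7% in WT did. The 10 genes all had a WT start region, whereas the 50.9% also counts Nan/+ regions at genes without one. That share is therefore not a like base for the 7 of 8. The other 3 Nan/+ and 3 WT overlapping regions were those at the starts of Pigv, Nop2 and Plekhj1 with Sf3a2. In the gene bodies away from the starts, 16 Nan/+ regions and 5 WT regions were listed and 0 overlapped. Over all genes with a RefSeq start, 4.23% of such Nan/+ regions and 11.9% of such WT regions overlapped the other list, so overlap away from starts was uncommon in general. Regions within 1 kb of any gene start, own or neighbour's, made up 11 of 31 in Nan/+, or 35.5%, and 15 of 20 in WT, or 75.0%, against 18.0% of all Nan/+ regions and 40.7% of all WT regions. The window of each of the 10 genes holds a gene start by construction, whereas the whole lists also hold regions far from genes. The shares over whole lists, for starts and for overlap, are therefore not a like base.

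Regions at any gene start were mostly wider than those elsewhere in both lists. At the starts, own or neighbour's, Nan/+ regions ran from 176 to 861 bp with a median of 352 bp, and WT regions from 205 to 813 bp with a median of 523 bp. Over all regions at gene starts the median was 314 bp in Nan/+ and 485 bp in WT. Away from every start, Nan/+ regions ran from 176 to 294 bp with a median of 176 bp, the minimum, and WT regions from 126 to 396 bp with a median of 157 bp, so the ranges at starts and elsewhere overlap. Of the 31 Nan/+ regions 13, or 41.9%, had the minimum width, against 54.5% of the whole list, and 12 of the 13 lay away from every start. Width depends on the calling settings, which differed between the lists. Among WT start regions, the 5 at genes without a Nan/+ start region were 301 to 711 bp wide with a median of 610 bp, and the 6 at genes with one were 205 to 645 bp wide with a median of 552 bp. These ranges overlap. The promoter windows of Smarca4, Smarcb1, Smarcc1, Ezh2 and Dot1l were 60.7% to 76.3% G or C, and those of Arid1a, Chd4, Mta2, Kmt2a and Kdm1a 57.0% to 79.7%, against a median of 56.7% over all windows. Whether WT width or GC content goes with the lack of a Nan/+ start region was not tested.

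**Figure D3:**
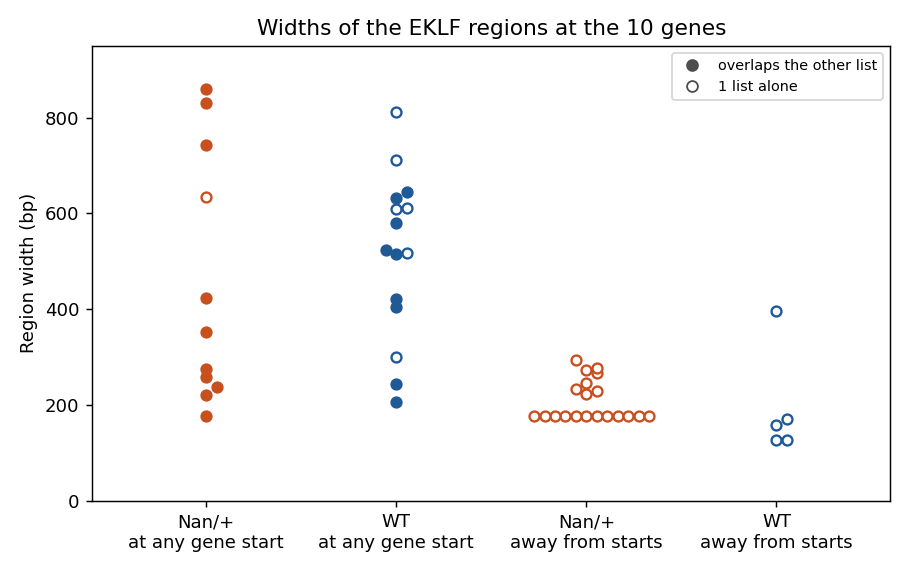
Width in bp of each EKLF region at the 10 genes, for Nan/+ and WT regions centred within 1 kb of any gene start, own or neighbour's, and for those away from every start, 1 point per region. Filled points overlap the other list and all stand at gene starts; the row of Nan/+ points at 176 bp is the minimum width of that list, and the medians are 352 bp in Nan/+ and 523 bp in WT at starts, and 176 bp in Nan/+ and 157 bp in WT away from them.

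Other genes of the same complexes were counted from 8 lists, which also hold the 10 genes. All 110 entries matched the gene table, and 100 of them are not among the 10 genes. Of these 100 genes, 79 had a region in Nan/+ and 77 in WT, with 64 in both, 15 in Nan/+ alone, 13 in WT alone and 8 in neither, and the median was 1 region in each list. The shares over all protein-coding genes were 37.5% in Nan/+, 33.5% in WT and 23.5% in both. They also serve beside the counts per list below of genes with a region anywhere in their window. The median length of the 100 genes was 43.0 kb, again above the 17.4 kb of all genes. A RefSeq start was given for 75 of them, of which 32 had a Nan/+ region and 43 a WT region within 1 kb. Over all 17274 genes with a RefSeq start these shares were 16.4% in Nan/+ and 22.4% in WT. They also serve beside the start counts per list below. Of the 43 genes with a WT start region 19, or 44.2%, had no Nan/+ one, against 55.5% of all genes with a WT start region. Another 8 of the 75 genes had a start region in Nan/+ alone.

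**Figure D4:**
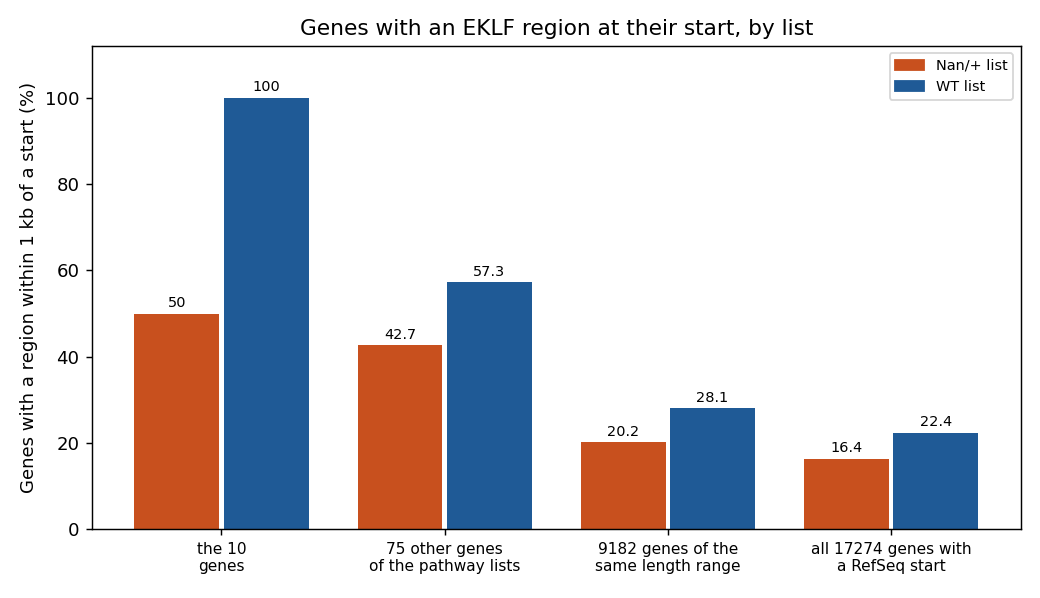
Percent of genes with an EKLF region centred within 1 kb of a RefSeq start, with Nan/+ bars left of WT bars, for the 10 genes, 75 other genes of the pathway lists, the 9182 genes in the same length range and all 17274 genes with a RefSeq start. The last 2 sets include the 10 genes, and Nan/+ bars stand below WT bars in each set, at 16.4% in Nan/+ and 22.4% in WT over all genes.

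Among SWI/SNF genes 16 of 22 had a region in Nan/+ and 15 of 22 in WT. Arid1b, which encodes the paralogue of BAF250A, had 25 Nan/+ and 16 WT regions across 353 kb, and Pbrm1, which encodes a PBAF subunit, had 9 in Nan/+ and 2 in WT. Smarca2, which encodes the alternative ATPase BRM, had 0 in both lists. Of the NuRD genes 11 of 13 had a region in Nan/+ and 12 of 13 in WT. Gatad2a, which encodes a bridging subunit, had 6 Nan/+ and 4 WT regions, and Hdac2, a deacetylase gene, had 0 Nan/+ and 1 WT region, at its start. Of 9 NuRD genes with a RefSeq start, 6 had a Nan/+ region and 8 a WT region there. Of the other remodeller genes 12 of 16 had a region in Nan/+, 12 in WT and 9 in both. Chd2 had 13 Nan/+ and 7 WT regions. Bptf, which encodes a subunit of the NURF remodeller, had 8 Nan/+ regions and 0 in WT.

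In the lysine 4 methyltransferase list 11 of 12 genes had a region in Nan/+, 11 in WT and 10 in both. All 9 of its genes with a RefSeq start had a WT region there, against 6 with a Nan/+ region. Kmt2c, a gene of 227 kb, had 23 Nan/+ regions and 1 WT region. Kdm6a, a gene of 119 kb that encodes a demethylase found with KMT2C and KMT2D, had 18 in Nan/+ and 2 in WT. Setd1b went the other way, with 4 Nan/+ and 6 WT regions. Widths are not given for genes outside the 10, and 54.5% of the whole Nan/+ list had the minimum width. Of 8 Polycomb repressive complex 2 genes, 7 had a region in Nan/+, 7 in WT and 6 in both. At the starts the counts were 2 in Nan/+ and 6 in WT. Suz12, a core subunit gene, had a start region in both, Eed, another core subunit gene, had one in WT alone, as did Jarid2 and Aebp2. In the DOT1L list 3 of 5 genes had a region in Nan/+ and 4 of 5 in WT. Mllt10, which encodes the DOT1L partner AF10, had 11 Nan/+ regions, none at a start, and 6 WT regions, 4 of them at a start.

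Of the other histone methyltransferases 15 of 17 had a region in Nan/+ and 13 of 17 in WT. Nsd3, a lysine 36 methyltransferase gene, had 2 Nan/+ and 6 WT regions, and Kmt5c, which encodes a lysine 20 methyltransferase of histone H4, had 4 in Nan/+ and 0 in WT. Histone demethylase and CoREST genes had a region at 14 of 17 in Nan/+ and 13 of 17 in WT, and this was the 1 list in which starts with a Nan/+ region, 6 of 12, were more than starts with a WT region, 5 of 12. Rcor1, which encodes the CoREST partner of LSD1, had 6 Nan/+ and 4 WT regions, with a start region in both. Kdm5b had 4 Nan/+ regions and 0 in WT, whereas Hmg20b, which encodes a CoREST-associated protein, had 0 in Nan/+ and 3 in WT.

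The counts at each of the 10 genes were set beside those of all protein-coding genes as a measure of likeness, taking genes with the same number of Nan/+ regions, WT regions and overlapping WT regions. The pattern of Smarcb1 and Ezh2, 1 region in each list and 0 overlapping, was shared by 832 other genes, and that of Mta2, 1 in each and overlapping, by 690. For Kdm1a the number was 364, for Kmt2a 153, for Smarcc1 103, for Chd4 32 and for Dot1l 21. Smarca4 shared its 6, 3 and 0 with 6 other genes, among which Ninj2, Fig4 and Uros were nearest in length. Arid1a shared its 8, 5 and 3 with 1 other gene, Zbtb7a. With 2 lists, equal counts describe how common a pattern is and nothing further.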

How the data were processed

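The authors deposited 1 list of EKLF regions per genotype. Per the file headers they were made with HOMER on mm10 from 3 ChIP libraries against 3 input places filled by 2 input libraries, with a q of 0.01, a fold over input of 4, and DESeq2 thresholds of 0.01 (false discovery rate) and 2 (log2 fold). The minimum distance between peaks was 300 bp in Nan/+ and 250 bp in WT. The deposited score is 1 in every row, so only positions and widths were used. The submitters' processing notes name Bowtie2 2.1 and SAMtools 1.1. Intervals were read as BED and are printed counted from 1. With Python 3.11.15, regions were assigned to 21523 protein-coding genes, after leaving out 108 placed in the first 3 Mb of a chromosome, as alternate loci are in this table, and 269 on Y or the mitochondrial chromosome. Regions overlapping by 1 bp counted as shared. Gene starts, strands and promoters came from RefSeq promoter windows of GRCm38.p6. Strand was checked on 823 overlapping windows of opposite strands, of which 823 were reverse complements. The interval functions were tested on simulated data. The 10 genes, the gene lists and the naming rule (the genes with the most regions, and those with regions in 1 genotype alone) were chosen with earlier results of these data known; Smarca2, Suz12 and Eed were named after their values were seen. CBP, H3K27ac, RNA polymerase II and ATAC samples were not analysed here. Some erythroid marker genes of the list first drawn up are not reported here.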

Additional observations from a re-analysis of the deposited data

How the results depend on the processing

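No paired analysis was possible because the 3 libraries of a genotype were merged by the authors into a single list, so replicates could not be left out either. Of 63 alternative values, 51 stayed within the bounds set, 1.5 times for counts. The exceptions were as follows. Nan/+ regions at the 10 genes numbered 48 within 50 kb of either gene end, 18 without regions of the minimum width and 20 in the widest 50% of each list, and WT regions numbered 13 in the widest 50%, since fewer or more regions enter by construction. With each region given to 1 gene, overlapping Nan/+ regions numbered 6, those nearer to a neighbouring gene being left out. Among genes in the same length range, 43.5% had a region in Nan/+ and 39.6% in WT. With minimum-width Nan/+ regions left out and the WT list left whole, the direction of the counts turned, to 18 in Nan/+ against 20 in WT. The Nan/+ count was then higher at 3 genes and lower at 4. In the widest 50% of each list the direction held, at 20 in Nan/+ against 13 in WT. The Nan/+ count was lower at 1 gene with each region given to 1 gene and at 1 in the widest 50%, and equal at 1 within 50 kb. These tallies per gene and the alternatives on gene starts were added after the data were seen: genes with a start region numbered 5 in Nan/+ under each, and 8 to 10 in WT, with 9 within 500 bp, 9 by overlap with the promoter window and 8 in the widest 50%. The lists give no tags per region, so depth at an unlisted start is unknown.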
